A study of Homo sapiens with 6 samples.

Results

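The genes described here are 10 that respond to stress of the endoplasmic reticulum (ER), out of 57500 genes counted. They are the chaperones HSPA5, HSP90B1 and CALR, the co-chaperones DNAJB9 and SDF2L1, the disulfide-handling proteins PDIA4, PDIA6 and CRELD2, the transcription factor XBP1, and HERPUD1, a factor of protein degradation. They were chosen by symbol for their place in the unfolded protein response, and each matched 1 Ensembl identifier in every table. XBP1 and HERPUD1 are not chaperones, so "ER stress genes" is used below for the 10 together. RNA came from mitochondria isolated from wild-type HepG2 cells, an established human liver carcinoma line of epithelial character. The controls received the solvent DMSO alone (0 µM GenX), and the treated cells received 10 µM or 100 µM GenX, a short-chain perfluoroalkyl ether acid, each for 48 h. There were 2 libraries per dose and 6 in all, stranded and depleted of ribosomal RNA. The labels name 1 batch and do not say whether replicates were separate cultures, so p-values measure the spread between these libraries, which may be technical. A carcinoma line does not stand for normal hepatocytes, and a mitochondrial preparation does not sample the whole cell.

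The unfolded protein response is the programme by which cells adjust the folding capacity of the ER. HSPA5, also called BiP or GRP78, binds unfolded chains in the ER and holds the stress sensors IRE1, PERK and ATF6 inactive. When unfolded proteins accumulate, IRE1 splices the XBP1 mRNA, ATF6 is cleaved to an active factor and PERK slows translation. XBP1 and ATF6 then induce chaperones, oxidoreductases and degradation factors. Hepatocytes secrete large amounts of protein and depend on this system. The tables hold counts per gene, so spliced and unspliced XBP1 mRNA were not told apart.

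Promoter sequences show what these genes share outside their counts. ATF6 binds the ER stress response element (ERSE), which reads CCAAT, then 9 bases of any kind, then CCACG. A related element, ERSE-II, reads ATTGG, 1 base of any kind, then CCACG. All 10 genes were found in the RefSeq promoter table (GRCh38.p14, 250 bases before to 50 after each start), with 13 entries because some genes have several starts. An exact ERSE on either strand was present for 6 of the 10 genes and an exact ERSE-II for 2 others, HERPUD1 and SDF2L1. Of all 35116 promoters in the table, 0.0769% held an ERSE and 0.0541% an ERSE-II. Counted by gene, 25 of 27305 genes held an ERSE and 19 an ERSE-II. The 10 genes were chosen for their place in this response, so the matches are a description and not a test. The XBP1-binding element TGACGTGG was found in 0.729% of promoters and in 0 of the 10 genes. DNAJB9 and PDIA4 held none of these letters in this window. The matches are shown so that the gene's own bases between the fixed parts can be compared. Each is written 5′ to 3′ on the strand on which the element reads in that order, and capitals mark the element.
HSPA5, chr9:125241386-125241414, minus strand: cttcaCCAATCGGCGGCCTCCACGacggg
HSP90B1, chr12:103930211-103930239, plus strand: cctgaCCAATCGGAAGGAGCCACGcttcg
HSP90B1, chr12:103930316-103930344, minus strand: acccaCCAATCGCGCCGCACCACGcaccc
CALR, chr19:12938379-12938407, minus strand: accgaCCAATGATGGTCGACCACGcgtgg
PDIA6, chr2:10812848-10812876, minus strand: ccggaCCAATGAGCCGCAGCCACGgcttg
CRELD2, chr22:49918549-49918577, minus strand: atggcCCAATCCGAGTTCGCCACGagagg
XBP1, chr22:28800598-28800626, minus strand: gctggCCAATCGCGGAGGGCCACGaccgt
HERPUD1, chr16:56932020-56932040, plus strand: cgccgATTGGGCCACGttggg
SDF2L1, chr22:21642109-21642129, minus strand: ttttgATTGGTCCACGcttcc

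The HSPA5 promoter is given over its 250 bases before the RefSeq start because HSPA5 had the largest measured ratio between 100 µM and control. The element lies 48 to 66 bases upstream of the start, in capitals.
HSPA5, chr9:125241344-125241593, minus strand: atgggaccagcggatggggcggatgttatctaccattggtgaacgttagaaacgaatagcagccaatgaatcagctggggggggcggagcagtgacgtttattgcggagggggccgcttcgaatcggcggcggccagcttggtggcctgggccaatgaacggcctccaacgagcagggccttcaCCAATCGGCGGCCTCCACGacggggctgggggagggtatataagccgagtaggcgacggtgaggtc

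The libraries differed widely in depth, with 230210 and 54502 counts on nuclear genes in the DMSO controls, 24505 and 11406 at 10 µM, then 2064527 and 1293961 at 100 µM. Genes of mitochondrial DNA took 4.35% and 10.4% of all counts in the DMSO controls, 43.7% and 61.1% at 10 µM, then 3.58% and 3.32% at 100 µM. Levels are therefore given in nuclear CPM, which scales each library to 1000000 counts on nuclear genes, and pooled ratios at 10 µM are given with all counts as denominator too. A gene with 0 counts may still have reached the level of 3 counts, which was 13.0 and 55.0 nuclear CPM in the DMSO controls, 122 and 263 at 10 µM, then 1.45 and 2.32 at 100 µM. The 12 hepatocyte and HepG2 markers took 0.869% and 2.15% of nuclear counts in the DMSO controls, 0.0857% and 0.0614% at 10 µM, then 1.33% and 1.26% at 100 µM. The 3 endothelial markers had between 0 and 4 counts in a library. The 4 immune markers took between 0.00816% and 0.0351%, and the 5 fibroblast or stellate markers between 0.0034% and 0.0789%. At 10 µM the hepatocyte markers had 21 and 7 counts beside 9 and 9 on the fibroblast or stellate markers, so few counts carry the identity of those libraries. Intervals below are exact 95% intervals and cover counting error only. Replicates differed by more than sampling noise (chi-square per degree of freedom of 39.4 in the DMSO controls, 12.9 at 10 µM, then 35.2 at 100 µM), so the true uncertainty is larger.

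Together the 10 genes took their largest share of nuclear counts at 100 µM and their smallest at 10 µM. The share was 0.195% (95% interval 0.177 to 0.214, 449 counts) and 0.207% (0.171 to 0.249, 113 counts) in the DMSO controls. At 10 µM it was 0.0735% (0.0435 to 0.116) and 0.132% (0.0736 to 0.217), on only 18 and 15 counts. At 100 µM it was 0.464% (0.455 to 0.473, 9574 counts) and 0.535% (0.522 to 0.547, 6918 counts). The libraries of the 3 doses did not overlap in this share. As means, the share was 0.201% ± 0.00869 (SD, n = 2) in the DMSO controls, 0.102% ± 0.0411 at 10 µM and 0.499% ± 0.0501 at 100 µM. Counts were found on 8 and 6 of the genes in the DMSO controls, on 5 and 6 at 10 µM, and on all 10 in both 100 µM libraries. In bulk RNA of this kind, fewer cells with a transcript and less of it per cell cannot be told apart.

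**Figure D1:**
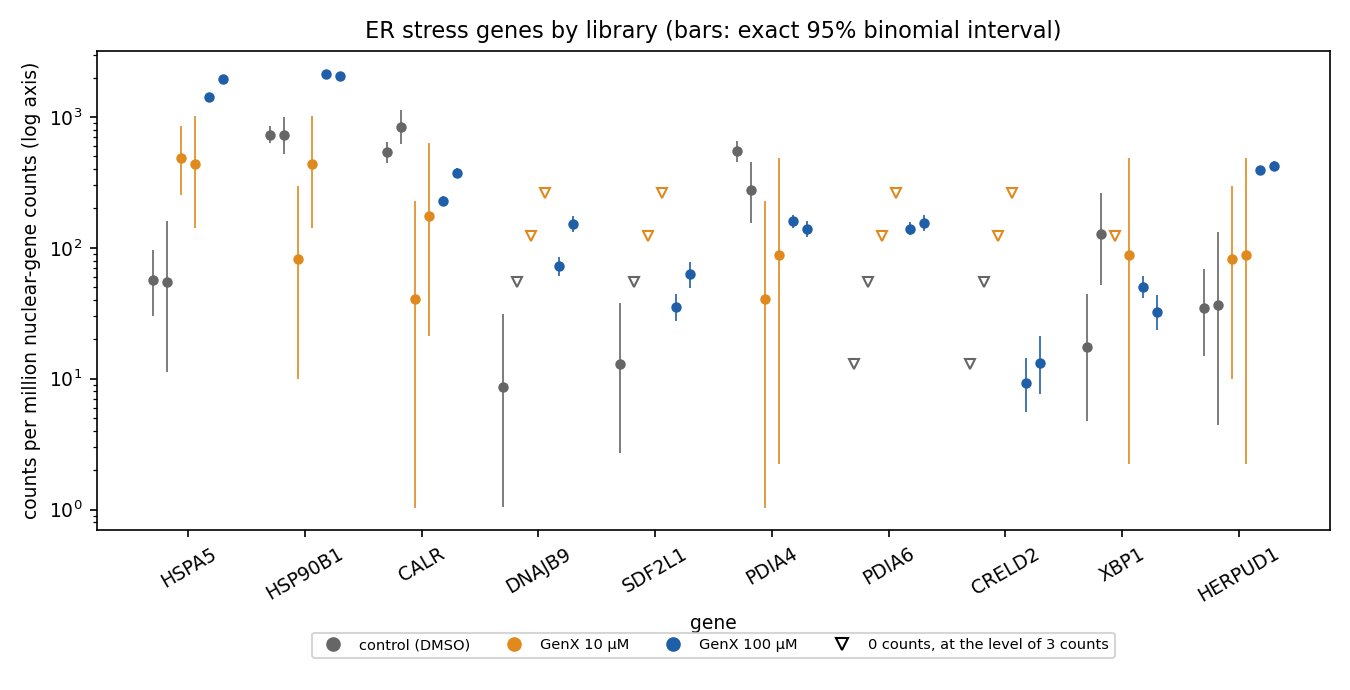
Level of each gene in each library, in nuclear CPM on a log axis, with bars for the exact 95% binomial interval and open triangles for libraries with 0 counts, drawn at the level of 3 counts. HSPA5 runs from 55.0 and 56.5 in the DMSO controls to 1425 and 1944 at 100 µM, while PDIA4 and CALR are highest in the DMSO controls.

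HSPA5, the main Hsp70 chaperone of the ER (ENSG00000044574, chr9:125234853-125241330, minus strand, GRCh38), had the largest measured ratio between doses. It held 13 and 3 counts in the DMSO controls, 12 and 5 at 10 µM, then 2941 and 2515 at 100 µM. These are 56.5 and 55.0 nuclear CPM, then 489.7 and 438, then 1425 and 1944. The values were ordered by dose, both controls agreed closely, and the 3 groups did not overlap. Pooled shares add the counts of a dose, so control 1 supplies 230210 of the 284712 control counts. At the pooled control share, the 10 µM libraries together would have held 2.02 HSPA5 counts, and they held 17. The pooled share was 8.42-fold that of the controls at 10 µM (95% interval 4.0 to 17.8) and 28.9-fold at 100 µM (17.8 to 50.6). Relative to all counts, mtDNA included, the ratio at 10 µM was 4.39 (2.09 to 9.29).

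HSP90B1, also called GRP94 (ENSG00000166598, chr12:103930107-103953645, plus strand), is the Hsp90 chaperone of the ER and was the most abundant of the 10 genes at 100 µM. It held 169 and 40 counts in the DMSO controls (734 and 734 nuclear CPM), 2 and 5 at 10 µM (81.6 and 438), and 4383 and 2653 at 100 µM (2123 and 2050). The 100 µM libraries lay above both controls, and both 10 µM libraries lay below them. The pooled share at 100 µM was 2.85-fold that of the controls (2.49 to 3.29). At 10 µM the ratio was 0.266 (0.105 to 0.557), or 0.139 relative to all counts, with 7 counts where the control share would have given 26.4.

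CALR, calreticulin (ENSG00000179218, chr19:12938578-12944489, plus strand), is a calcium-binding chaperone of glycoproteins. Its values were highest in the DMSO controls, with 124 and 46 counts (539 and 844 nuclear CPM). It held 1 and 2 counts at 10 µM (40.8 and 175) and 472 and 484 at 100 µM (229 and 374). Both treated groups lay below both controls and did not overlap each other. The pooled share at 100 µM was 0.477 of the control share (0.405 to 0.565). At 10 µM, 3 counts stood where the control share would have given 21.4, a ratio of 0.140 (0.0286 to 0.416), or 0.0730 relative to all counts. CALR thus had values in the opposite direction to HSPA5 and HSP90B1 at 100 µM.

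Ratios between genes within a library do not depend on its depth or on the share of mtDNA. HSPA5 had 0.0769 and 0.0750 counts per HSP90B1 count in the DMSO controls. The ratio was 6.0 (1.34 to 55.2) and 1.00 (0.230 to 4.35) at 10 µM, and 0.671 (0.640 to 0.703) and 0.948 (0.897 to 1.00) at 100 µM. Every treated library had a higher ratio than both controls. HSPA5 per CALR count was 0.105 and 0.0652 in the DMSO controls, 12.0 and 2.5 at 10 µM, then 6.23 and 5.20 at 100 µM. HSP90B1 per CALR count was 1.36 and 0.870 in the DMSO controls and 9.29 and 5.48 at 100 µM, with 2.0 and 2.5 at 10 µM on 3 and 7 counts in all. The makeup of the set thus differed between doses, beside its total.

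As a percentage of the counts on the 10 genes, HSPA5 took 2.90% (1.55 to 4.90) and 2.65% (0.551 to 7.56) in the DMSO controls. It took 66.7% (41.0 to 86.7) and 33.3% (11.8 to 61.6) at 10 µM, and 30.7% (29.8 to 31.7) and 36.4% (35.2 to 37.5) at 100 µM. HSP90B1 took 37.6% and 35.4% in the DMSO controls and 45.8% and 38.3% at 100 µM. CALR and PDIA4 together made up most of the rest in the DMSO controls. CALR took 27.6% and 40.7% there against 4.93% and 7.00% at 100 µM, and PDIA4 took 28.1% and 13.3% against 3.45% and 2.62%. The control pattern was dominated by 3 genes, and the 100 µM pattern by HSP90B1 and HSPA5.

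**Figure D2:**
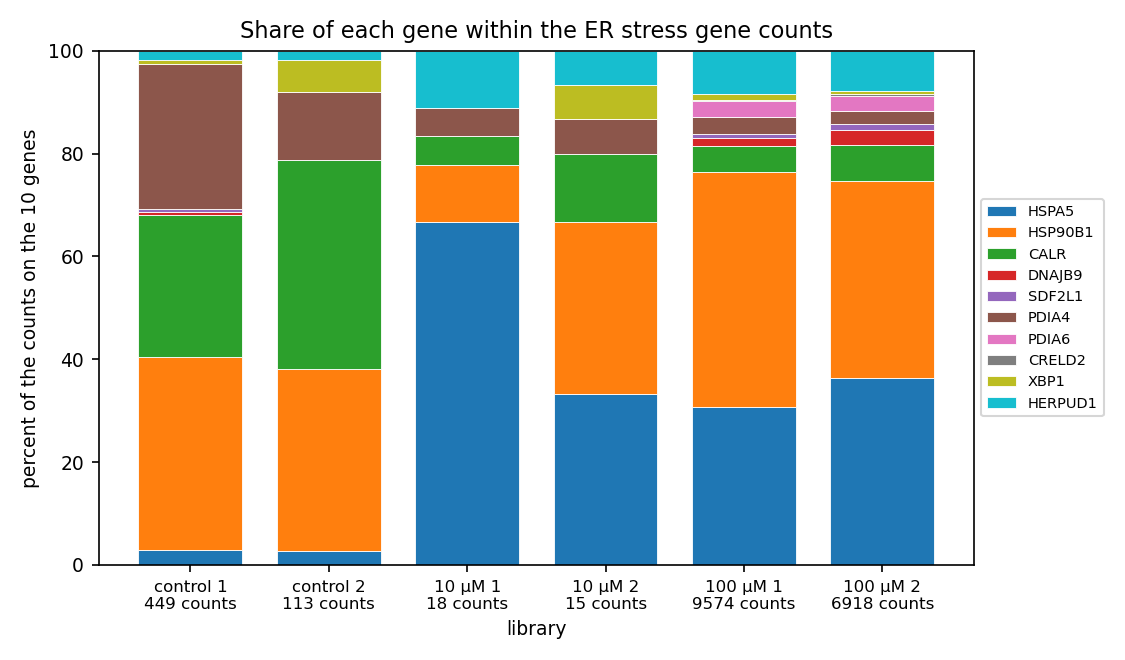
Percentage of the counts on the 10 genes that fell on each gene, by library, with the number of counts under each bar. The HSPA5 segment is 2.90% and 2.65% in the DMSO controls and 30.7% and 36.4% at 100 µM, and the CALR and PDIA4 segments are largest in the DMSO controls; the 10 µM bars rest on 18 and 15 counts.

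The co-chaperones had at most 3 counts in a library outside the 100 µM group. DNAJB9 (ERdj4) is a J-domain partner of HSPA5 (ENSG00000128590, chr7:108569568-108574850, plus strand). It held 2 and 0 counts in the DMSO controls, 0 and 0 at 10 µM, then 149 and 197 at 100 µM (72.2 and 152 nuclear CPM). The pooled share at 100 µM was 14.7-fold that of the controls, with a wide interval (4.03 to 122) because of the 2 control counts. SDF2L1 (ENSG00000128228, chr22:21642261-21644298, plus strand) forms part of ER chaperone complexes. It held 3 and 0 counts in the DMSO controls, 0 and 0 at 10 µM, then 73 and 81 at 100 µM (35.4 and 62.6 nuclear CPM). Its ratio at 100 µM was 4.35 (1.46 to 21.3). The DNAJB9 values at 100 µM lay above both controls, while those of SDF2L1 lay above control 1 and on both sides of the 55.0 nuclear CPM that control 2 could still have held. At the 100 µM share the 10 µM libraries together would have held 3.70 DNAJB9 and 1.65 SDF2L1 counts, so a difference between these doses was not detectable for SDF2L1. For DNAJB9 the 3-count limit gave at least 1.23-fold higher and the exact lower 95% limit was 0.998. Relative to all counts these were 2.42 and 1.95. DNAJB9 overlaps PNPLA8 and THAP5 on the other strand, and PNPLA8 held 450 and 392 counts at 100 µM and 3 and 0 in the DMSO controls. Other members overlap genes on the other strand too. UQCC6, which overlaps HSP90B1, held 54 and 1 counts in the DMSO controls and 77 and 0 at 100 µM. The pseudogene HSP90B2P held 1 and 0, then 52 and 1. ATP6V1C2, which overlaps PDIA6, held 6 and 0 at 10 µM and 4 and 2 at 100 µM. How strand and overlaps were counted is not given in the sources used here.

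The oxidoreductases form and rearrange disulfide bonds in the ER, and they did not share 1 pattern. PDIA4, or ERp72 (ENSG00000155660, chr7:149003062-149028641, minus strand), was highest in the DMSO controls, with 126 and 15 counts (547 and 275 nuclear CPM). It held 1 and 1 counts at 10 µM (40.8 and 87.7) and 330 and 181 at 100 µM (159.8 and 139.9). Both treated groups lay below both controls. The pooled share at 100 µM was 0.307 of the control share (0.254 to 0.373), and at 10 µM 2 counts stood where 17.8 would have matched the controls, a ratio of 0.112 (0.0135 to 0.414), or 0.0587 relative to all counts. PDIA6, or P5 (ENSG00000143870, chr2:10783391-10837977, minus strand), in contrast had 0 counts in both controls and both 10 µM libraries and 290 and 202 at 100 µM (140.5 and 156 nuclear CPM). At the 100 µM share the controls together would have held 41.7 PDIA6 counts. Its pooled share at 100 µM was at least 13.9-fold higher than in the DMSO controls, taking 3 counts over both controls as their limit. The exact lower 95% limit of that ratio was 11.3. Against 10 µM the 3-count limit gave at least 1.75-fold higher, or 3.44-fold relative to all counts, with exact lower limits of 1.42 and 2.78. PDIA4 and PDIA6 thus had like levels at 100 µM and unlike ones in the DMSO controls.

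CRELD2 (ENSG00000184164, chr22:49918167-49927540, plus strand) was the least abundant of the 10, a protein that is secreted upon ER stress and has disulfide isomerase features. It held 19 and 17 counts at 100 µM (9.20 and 13.1 nuclear CPM) and 0 in the other 4 libraries. At that share the controls together would have held 3.05 counts, so a difference was not detectable at this depth.

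XBP1 (ENSG00000100219, chr22:28794555-28800597, minus strand) encodes the transcription factor whose mRNA IRE1 splices. It held 4 and 7 counts in the DMSO controls (17.4 and 128 nuclear CPM), 0 and 1 at 10 µM (0 and 87.7), and 104 and 42 at 100 µM (50.4 and 32.5). The controls lay on both sides of the 100 µM libraries. The pooled ratio of 100 µM to control was 1.13 (0.611 to 2.30). HERPUD1 (ENSG00000051108, chr16:56932048-56944863, plus strand) is an ER membrane protein that assists the export of misfolded proteins to the proteasome. It held 8 and 2 counts in the DMSO controls (34.8 and 36.7 nuclear CPM), 2 and 1 at 10 µM (81.6 and 87.7), and 813 and 546 at 100 µM (394 and 422). The 3 groups did not overlap and were ordered by dose, but the 10 µM values rest on 3 counts. A single count there was worth 40.8 and 87.7 nuclear CPM, so any count at 10 µM lay above both controls. The pooled ratio was 11.5 at 100 µM (6.25 to 24.1) and 2.38 at 10 µM (0.421 to 9.24), the latter including no difference. Relative to all counts the ratio at 10 µM was 1.24.

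**Figure D3:**
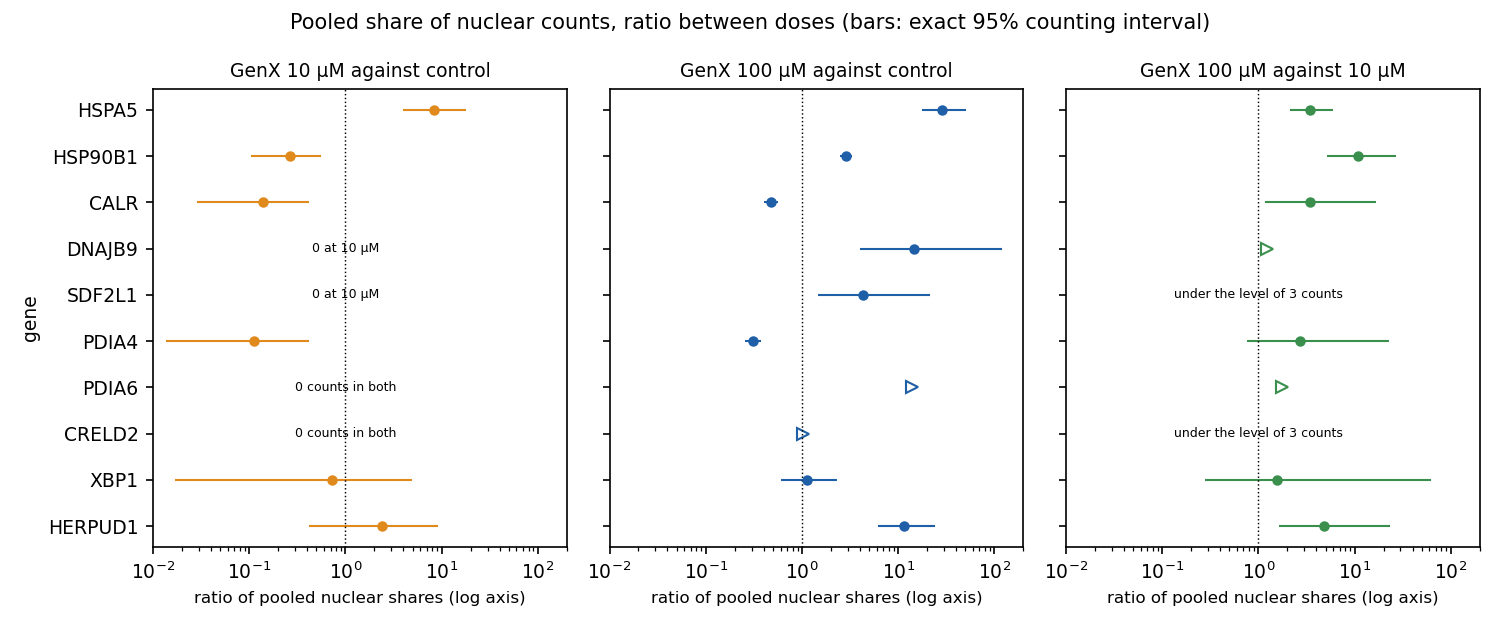
Ratio of each gene's pooled share of nuclear counts between doses, on a log axis, with bars for the exact 95% counting interval, open arrowheads for lower limits where the second group had 0 counts, and a dotted line at 1. At 100 µM against control HSPA5 (28.9), DNAJB9 (14.7) and HERPUD1 (11.5) lie to the right of the line and CALR (0.477) and PDIA4 (0.307) to the left.

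None of these differences passed the test over all genes. edgeR's quasi-likelihood test with Benjamini-Hochberg adjustment over 3180 genes admitted 7 of the 10, all but XBP1, SDF2L1 and CRELD2. A gene could enter through the deep 100 µM libraries alone, so the 7 are not a neutral sample of the 10. At 10 µM against control 0 of the 7 passed, where 0.597% of all genes tested did, and 3 of the 7 had an unadjusted p under 0.05, as did 28.1% of all genes. At 100 µM against control 0 passed, where 0% of all genes did, and 2 had an unadjusted p under 0.05, beside 18.0% of all genes. At 100 against 10 µM 0 passed, where 2.86% of all genes did, and 3 had an unadjusted p under 0.05, beside 36.2% of all genes. DESeq2's Wald test likewise called 0 of the 10 in each comparison, but it gave some of them no adjusted p. These included DNAJB9 and HERPUD1 at 10 µM against control, and DNAJB9 and PDIA6 at 100 µM against control.

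At 10 µM against control, HSPA5 had a log2 fold change of 1.84 ± 1.24 (SE; edgeR adjusted p = 0.303). HERPUD1 had 0.02 ± 1.67 (adjusted p = 1.0), and its sign turned with the scaling (-0.03 with nuclear genes only, 1.24 with nuclear counts as library sizes). The values of HSP90B1, CALR and PDIA4 were -3.00 ± 1.19, -4.09 ± 1.55 and -4.14 ± 1.71, with adjusted p between 0.152 and 0.163. The median was -3.00 over these 5, beside -0.68 over the 1754 genes tested with counts in both groups and -3.18 over all genes tested, many of them at 0 in a group. In nuclear CPM, 2 of the 7 lay above both controls (HSPA5 and HERPUD1), where 11.1% of nuclear genes tested did, and 3 lay below both, where 32.0% did. HERPUD1 held 2 and 1 counts at 10 µM, and any count there lay above both of its control values. Its place above the controls thus follows from depth and is no sign of a difference. Without control 2, HSP90B1, CALR and PDIA4 passed (adjusted p = 0.00173, 0.00919 and 0.00691), and without control 1 CALR alone did (0.0378). In each of these fits 12.5% of all genes passed. These fits hold 1 control, which is assumed to vary like the other groups.

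At 100 µM against control, the value of HSPA5 was 4.32 ± 1.32 (edgeR adjusted p = 0.204). HERPUD1 had 2.92 ± 1.56 (0.340), DNAJB9 3.44 ± 1.60 (0.290) and HSP90B1 0.94 ± 1.06 (0.653). CALR had -1.69 ± 1.30 (0.501) and PDIA4 -2.13 ± 1.43 (0.437). The adjusted p of PDIA6, at 0 in both controls, was 0.204. The median was 1.93 over the 6 genes tested with counts in both groups, beside 0.14 over the 2925 genes tested with counts in both. XBP1 and SDF2L1 also had counts in both groups but were not tested. XBP1 had -0.69 ± 1.56 where it was fitted with nuclear counts as library sizes. In nuclear CPM 5 of the 7 lay above both controls, where 48.3% of nuclear genes tested did, and CALR and PDIA4 lay below both, where 9.57% did. PDIA6, DNAJB9 and HERPUD1 entered the test only through their 100 µM counts, as other genes in that 48.3% could. Their place above the controls is thus no separate sign of a difference. The same limit holds for DNAJB9 and HERPUD1 in the median. HSPA5 passed when either control was left out (5.28, adjusted p = 0.0253 without control 1, and 4.29, adjusted p = 0.0162 without control 2), beside 3.57% and 2.97% of all genes in those fits.

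At 100 against 10 µM the 5 genes tested with counts at both doses had positive values, as did 1211 of the 1859 genes tested with counts at both. HSP90B1 had 3.94 ± 1.22 (edgeR adjusted p = 0.115), HERPUD1 2.90 ± 1.64 (0.198), HSPA5 2.48 ± 1.22 (0.155), CALR 2.40 ± 1.48 (0.229) and PDIA4 2.01 ± 1.65 (0.351). Their median was 2.48, beside 1.14 over those 1859 genes. In nuclear CPM all 7 genes tested lay above both 10 µM libraries, where 63.8% of nuclear genes tested did, and 0 lay below both, where 7.63% did. Both figures include genes at 0 counts at 10 µM, DNAJB9 and PDIA6 among them. These 2 could not be placed by single library at that depth, and their pooled limits are given above. Like HERPUD1, they entered the test only through their 100 µM counts, so their place is no separate sign of a difference. HSPA5, HSP90B1, CALR and HERPUD1 passed when either control was left out, with adjusted p between 0.000109 and 0.0413. In these fits 36.0% of all genes passed without control 1 and 18.5% without control 2. The comparisons share groups, so their values for a gene are not independent of each other.

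**Figure D4:**
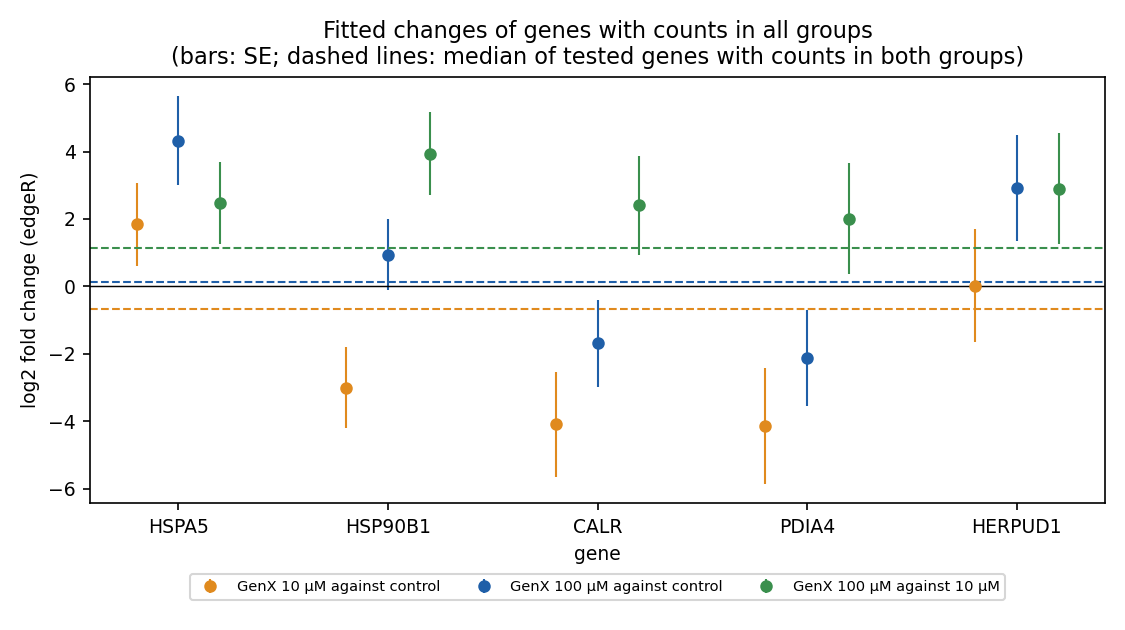
Log2 fold changes from edgeR with their SE for the 5 genes tested that had counts in every group, with a dashed line in each comparison for the median of the genes tested that had counts in both groups. HSPA5 lies above the dashed line at 10 µM against control (1.84 beside -0.68) and at 100 µM against control (4.32 beside 0.14), and CALR and PDIA4 lie below both of those lines.

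Per kilobase of exon the order of the genes also differed between doses. In the controls CALR had the highest mean level (255 nuclear CPM per kilobase), followed by HSP90B1 (157) and PDIA4 (126). The PDIA4 libraries, at 84.0 and 167, lay on both sides of those of HSP90B1. HSPA5 stood at 14.3 and HERPUD1 at 6.93. At 100 µM HSP90B1 (445) and HSPA5 (431) led with overlapping libraries, followed by CALR (111) and HERPUD1 (79.1). PDIA4 (45.7), SDF2L1 (44.6), DNAJB9 (39.6) and PDIA6 (36.2) were close together, and SDF2L1 and DNAJB9 each spanned the others. XBP1 (13.7) and CRELD2 (2.16) came last. At 10 µM HSPA5 had 125 and 112, beside 17.4 and 93.5 for HSP90B1. In library 2 of that dose both genes held 5 counts, so their difference there comes from exon length alone.

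Other genes of the ER and of the stress response were followed in 7 lists, of which 1 gene passed the test in 1 comparison (HSP90AB1, given below). Of 16 other ER folding factors, such as co-chaperones, disulfide isomerases and lectins, 8 were tested. Their summed share of nuclear counts was 0.0873% and 0.152% in the DMSO controls, 0.151% and 0.105% at 10 µM, then 0.317% and 0.344% at 100 µM. Among those tested with counts in both groups, the median log2 fold change against control was 0.12 over 5 genes at 10 µM. It was 2.22 over 7 genes at 100 µM, beside -0.68 and 0.14 over all genes tested with counts in both groups. P4HB, the classical protein disulfide isomerase, held 48 and 73 counts in the DMSO controls, 24 and 1 at 10 µM, then 2529 and 1428 at 100 µM. Its value at 100 µM against control was 0.28 ± 1.34 (edgeR adjusted p = 0.932).

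Of 9 sensors and transcription factors, 4 were tested, and their share was 0.0708% and 0.0752% in the DMSO controls, 0.0775% and 0.00877% at 10 µM, then 0.161% and 0.185% at 100 µM. ATF4, the factor translated when PERK is active, held 14 and 36 counts in the DMSO controls, 1 and 0 at 10 µM, then 2522 and 2011 at 100 µM (1222 and 1554 nuclear CPM, beside 60.8 and 661). Its value at 100 µM against control was 1.68 ± 1.38 (edgeR adjusted p = 0.527). Over the 4 genes tested the median log2 fold change in that comparison was 2.33, with 3 above 0. The 6 genes of the CHOP branch, which PERK signalling drives, took 1.02% and 0.0294% in the DMSO controls and 0.249% and 0.251% at 100 µM. ERO1A, an ER oxidase, supplied 2235 counts in control 1 and 4 in control 2, so that list's control level rests on 1 library. Over the 5 genes tested of that list the median log2 fold change at 100 µM against control was 1.64, with 4 above 0.

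The 13 genes of ER-associated degradation, the route HERPUD1 serves, took 0.176% and 0.0972% in the DMSO controls and 0.130% and 0.100% at 100 µM, with overlapping groups. Of these, 7 were tested, with a median of -1.42 at 100 µM against control, beside 0.14 over all genes tested with counts in both groups. SEL1L, a scaffold of the degradation ligase, held 76 and 26 counts in the DMSO controls, 0 and 1 at 10 µM, then 420 and 236 at 100 µM. The 17 genes of ER translocation and secretion took 0.247% and 0.110% in the DMSO controls, 0.159% and 0.0351% at 10 µM, then 0.273% and 0.285% at 100 µM. SERP1, which protects proteins during translocation, held 104 and 3, then 20 and 0, then 327 and 355 counts. Over the 13 genes tested of that list the median at 100 µM against control was -0.55, with 6 above 0.

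Chaperones of other compartments also had their largest shares at 100 µM. The 10 cytosolic chaperones took 0.487% and 0.308% in the DMSO controls, 0.0816% and 0.0964% at 10 µM, then 0.601% and 0.539% at 100 µM. Among them HSP90AB1, a cytosolic Hsp90, passed at 100 against 10 µM (5.10 ± 1.12, edgeR adjusted p = 0.0408). The 9 mitochondrial chaperones and proteases took 0.0938% and 0.0367% in the DMSO controls, 0.0286% and 0.0789% at 10 µM, then 0.260% and 0.267% at 100 µM. LONP1, a matrix protease, held 29 and 12, then 5 and 0, then 1172 and 1185 counts. The median log2 fold change at 100 µM against control was -0.15 over 8 cytosolic chaperones tested, with 3 above 0. It was 1.88 over 5 mitochondrial ones, with 4 above 0, beside 1.93 over the 6 ER stress genes tested with counts in both groups.

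**Figure D5:**
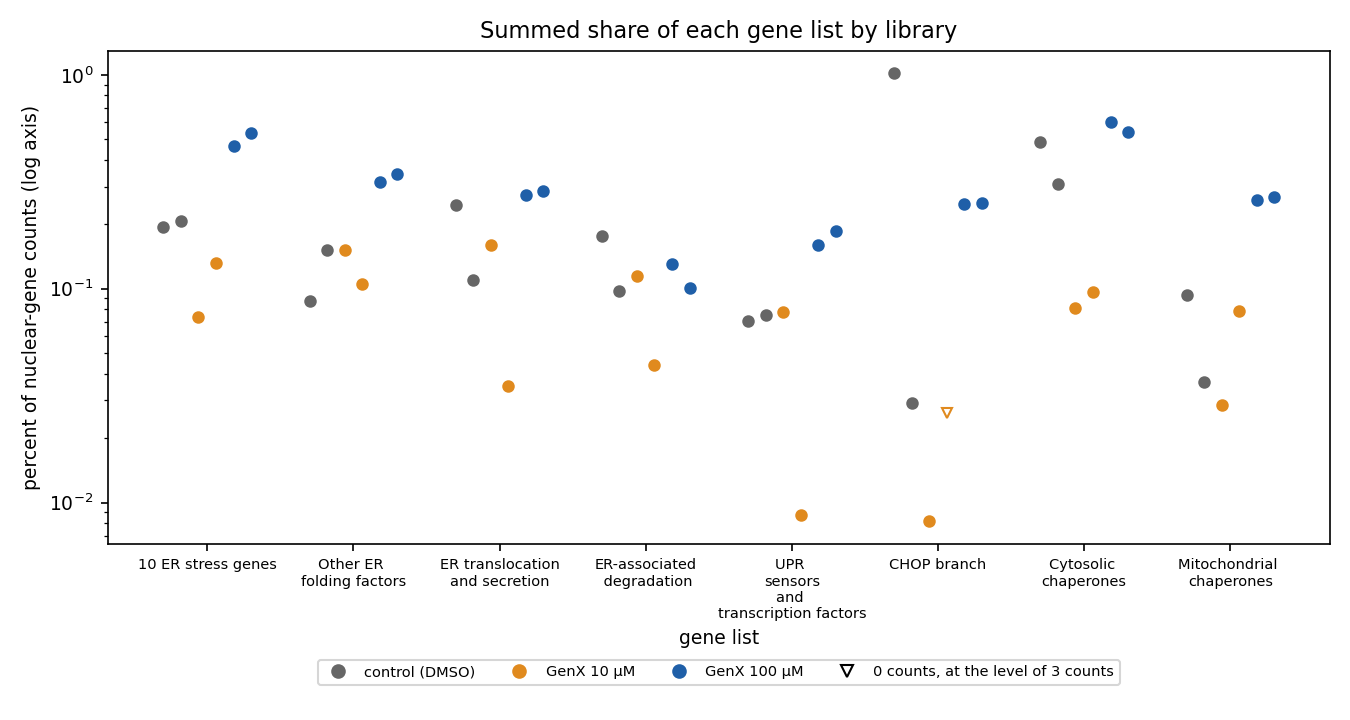
Summed share of nuclear-gene counts for the 10 ER stress genes and 7 other lists, by library, on a log axis, with an open triangle at the level of 3 counts where a list had 0 counts. The 10 ER stress genes lie at 0.464% and 0.535% at 100 µM, above both controls (0.195% and 0.207%), and the CHOP branch shows the gap between control 1 (1.02%) and control 2 (0.0294%).

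Shares of RNAs of other compartments also differed between doses. The nuclear-retained RNAs MALAT1 and NEAT1 together took 14.5% and 6.08% of nuclear-gene counts in the DMSO controls, 0.0857% and 0.140% at 10 µM, then 3.47% and 3.18% at 100 µM. The 5 abundant cytosolic mRNAs took 0.503% and 0.413%, then 0.0367% and 0.263%, then 0.797% and 0.787%. The 9 mRNAs of secreted hepatocyte proteins, which are translated at the ER as most of the 10 genes are, took 0.620% and 1.36%, then 0.0775% and 0.0351%, then 1.14% and 1.12%. Their part in the values of the ER stress genes was not tested.

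The protein-coding genes whose profiles over the 6 libraries were nearest to that of HSPA5 were H2AZ1, a histone variant, EIF4A3, a helicase of the exon junction complex, and AUP1, a lipid droplet and ER degradation protein. Their root-mean-square differences from HSPA5 in centred log2 nuclear CPM were 0.498, 0.546 and 0.591, among 3043 genes compared. H2AZ1 had 65.2 and 128 nuclear CPM in the DMSO controls, 408 and 351 at 10 µM, then 1539 and 1856 at 100 µM. EIF4A3 held 6 and 1 counts in the DMSO controls, 3 and 2 at 10 µM, then 2646 and 1111 at 100 µM. AUP1 held 1 and 0, then 1 and 1, then 423 and 331 counts. Below 100 µM the AUP1 profile thus rests on at most 1 count per library and on the prior count. HERPUD1 came nearest of the other ER stress genes, with a difference of 0.789 and rank 22. PDIA6 had 1.60, DNAJB9 1.80, HSP90B1 2.18, PDIA4 2.83 and CALR 2.89. This is a description of 6 libraries that differ in depth, with no test.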

How the data were processed

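Deposited tables held unnormalized whole-number counts, 1 table per library in featureCounts layout, per the file headers. Per the submitters' processing notes the authors used FastQC, STAR, featureCounts and DESeq2 with GRCh38; versions, annotation release, strand and multimapping settings are not given in the sources used here. SELENOS was counted once under both its symbols. Symbols came from an identifier table that matched 56410 of 57500 genes, and gene types from GENCODE v29. Groups and replicate numbers came from titles. The members and lists were chosen with earlier results of these data known.

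All genes were fitted in edgeR 4.0.16 (R 4.3.3) with filterByExpr, TMM scaling, robust quasi-likelihood fits of 6 libraries in 1 model of group means, two-sided tests and Benjamini-Hochberg adjustment over 3180 genes at 0.05. The scripts were tested on simulated data. Shares and ratios carry exact binomial intervals (Clopper-Pearson, scipy 1.17.1), and pooled ratios weight libraries by depth. The limit for 0 counts was 3 counts. The 10 genes were all named. From each list up to 3 genes that passed were named, or the tested gene with the highest mean; those used only as markers are given as sums. Profiles used a prior count of 2. Alternatives were DESeq2 size factors, library sizes alone, 2 nuclear scalings, DESeq2 1.42.0, 2 filters, 4-library fits, a replicate block and leaving out each library.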

Additional observations from a re-analysis of the deposited data

How the results depend on the processing

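The alternatives gave 282 values of single ER stress genes, leaving out PDIA6 at 10 µM against control, which had 0 counts. Of these, 258 kept their direction and did not pass, among them the DESeq2 values that had no adjusted p. A further 16 kept their direction and passed, and 8 turned direction. The 8 are all HERPUD1 at 10 µM against control, where 3 counts limit the value: -0.03 with nuclear genes only, -0.6 with no filter and -0.74 with a mean of at least 5 CPM and, in 5 of the fits without a library, between -0.79 and -0.08. Without control 1 it was 0.21. The number of ER stress genes called at 100 against 10 µM was 1 with a mean of at least 5 CPM (HSP90B1, edgeR adjusted p = 0.0364). In that fit 2.43% of all genes tested passed. It was also 1 with only the 4 libraries compared (HSP90B1, 0.0298), where 4.44% of all genes tested passed. Leaving out 1 library gave 0 to 3 calls at 10 µM against control, 0 to 1 at 100 µM against control and 0 to 4 at 100 against 10 µM, and the calls came from leaving out a control. The cause was not tested.

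With all counts as denominator the summed share was 0.186% for controls and 0.0462% at 10 µM. Without the 10 most abundant nuclear genes the control share was 0.248%. Single libraries gave 0.195% to 0.207% for controls, 0.0735% to 0.132% at 10 µM and 0.464% to 0.535% at 100 µM.

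Correlations of replicate differences between groups were 0.0089, 0.000217 and -0.0252, so no pairing of libraries by replicate number was seen. The shallow libraries held few counts per gene, and counting noise could hide a pairing, so these values cannot exclude it. With the replicate block 0 ER stress genes were called in each comparison, while calls over all genes went from 7 higher and 12 lower to 14 and 61 at 10 µM, from 0 and 0 to 0 and 22 at 100 µM, and from 24 and 67 to 54 and 82 between the treated doses.

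Scaling moved the median of all genes tested, those at 0 in a group included, between -3.18 and -1.29 at 10 µM, between -0.05 and 1.01 at 100 µM, and between 2.21 and 3.89 between the treated doses. It also moved the calls over all genes, higher and lower. At 10 µM DESeq2 size factors gave 8 and 7 such calls, scaling by library size alone 0 and 7, nuclear genes only 0 and 1, and nuclear counts as library sizes 8 and 4. At 100 µM DESeq2 size factors gave 0 and 4. Between the treated doses the 4 scalings gave 6 and 73, 68 and 91, 0 and 0, and 22 and 149. DESeq2's Wald test gave 2 and 12, 0 and 3, and 9 and 494, over 19632 genes. No filter gave 0 and 7, 0 and 0, and 3 and 0, over 19632 genes. A mean of at least 5 CPM gave 0 and 95, 0 and 0, and 201 and 90, over 11953 genes. The 4 libraries compared gave 72 and 134, 0 and 0, and 158 and 100, over 458, 6423 and 5808 genes. At 10 µM that fit thus called 45.0% of its genes, and 0 of the 3 ER stress genes in it. The settings differ in the genes tested, so these counts cannot be compared directly. Without control 1 the counts were 27 and 334, 26 and 77, and 822 and 219, and without control 2 they were 51 and 810, 31 and 173, and 927 and 345. Depth limits the 10 µM values most, where a single count was worth 40.8 and 87.7 nuclear CPM.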
